A study of Mus musculus with 2 samples.

Results

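The brush border disaccharidases of the mouse duodenum are described here through 4 genes, sucrase-isomaltase (Sis), maltase-glucoamylase (Mgam), trehalase (Treh) and lactase (Lct). They were taken by gene symbol from the 43346 genes of the deposited gene tables, together with their 11 transcripts among the 129984 rows of the transcript tables, and all 4 were measured in both libraries. The tissue was the duodenum of adult C57BL/6J mice aged 8 weeks, pooled from male and female littermates, and 2 libraries of polyadenylated, strand-specific RNA represent it as replicate 1 and replicate 2 of 1 group. The libraries share a donor entry and differ in their tissue sample entry, and nothing states that they came from separate animals. The p-values of the binomial test below set the gap between 2 libraries against counting error alone, and that gap may be technical. They hold no estimate of the spread between libraries. No treatment, genotype or time was compared, and the questions the design allows are how high each gene stood, how its transcripts and splice junctions were covered, and how far the libraries differed.

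Disaccharidases sit in the apical membrane of the enterocyte, the absorptive cell of the villus, and split the short sugars that amylase and the diet leave in the gut lumen into single hexoses. Sis cleaves sucrose and the branch points of starch fragments, Mgam releases glucose from the ends of starch chains, Lct splits milk lactose, and Treh splits trehalose, a sugar of fungi and insects. Sis and Mgam are related proteins with a pair of catalytic units each, Treh is held in the membrane by a lipid anchor, and Lct is known for its decline after weaning in most mammals.

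All 4 genes lie on different chromosomes (GENCODE positions, mm10, 1-based). Sis (ENSMUSG00000027790.10) spans chr3:72888557-72967863 on the minus strand, and Mgam (ENSMUSG00000068587.6) spans chr6:40628831-40769123 on the plus strand. Lct (ENSMUSG00000026354.8) spans chr1:128284756-128328318 on the minus strand, and Treh (ENSMUSG00000032098.9) spans chr9:44673233-44686305 on the plus strand. The 250 bases before each RefSeq gene start (GRCm38.p6) are shown because factors of the caudal (Cdx), GATA and HNF4 families are known regulators of enterocyte genes, and their own levels are given below. Each window is printed 5′ to 3′ on the strand of its gene, and capitals mark matches to 3 kinds of motif, searched on either strand. The caudal-type motif was TTTAT, and the form of it that ends in C, namely TTTAC, was accepted too. The GATA-type motif was AGATAA, and its accepted forms were those with T as the first base, with G as the last base, or with both of these changes, TGATAG. The HNF4-type motif was CAAAGT.
Sis, chr3:72967864-72968113, minus strand: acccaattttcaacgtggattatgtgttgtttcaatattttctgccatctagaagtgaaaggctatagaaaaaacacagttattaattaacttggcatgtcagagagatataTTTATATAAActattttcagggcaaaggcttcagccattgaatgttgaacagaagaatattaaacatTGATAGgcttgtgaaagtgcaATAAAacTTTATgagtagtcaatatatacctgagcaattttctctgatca
Mgam, chr6:40628581-40628830, plus strand: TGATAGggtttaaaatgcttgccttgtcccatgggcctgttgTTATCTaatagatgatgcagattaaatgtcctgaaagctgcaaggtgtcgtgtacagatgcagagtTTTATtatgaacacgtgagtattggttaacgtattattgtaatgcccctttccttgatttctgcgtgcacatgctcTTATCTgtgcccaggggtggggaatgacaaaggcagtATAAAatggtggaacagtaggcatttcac
Lct, chr1:128328319-128328568, minus strand: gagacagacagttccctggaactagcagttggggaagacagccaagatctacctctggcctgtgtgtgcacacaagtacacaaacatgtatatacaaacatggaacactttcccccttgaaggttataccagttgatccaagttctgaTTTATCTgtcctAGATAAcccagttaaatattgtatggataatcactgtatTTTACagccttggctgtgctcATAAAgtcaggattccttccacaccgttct
Treh, chr9:44672983-44673232, plus strand: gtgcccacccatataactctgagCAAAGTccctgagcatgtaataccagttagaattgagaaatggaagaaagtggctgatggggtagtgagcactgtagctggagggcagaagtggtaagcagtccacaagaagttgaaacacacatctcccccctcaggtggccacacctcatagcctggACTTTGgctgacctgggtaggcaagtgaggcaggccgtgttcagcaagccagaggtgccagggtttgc

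The Sis window held 4 caudal-type matches and 1 GATA-type match, and the Mgam window held 2 caudal-type and 3 GATA-type matches. The Lct window held 3 caudal-type and 2 GATA-type matches, of which 1 of each kind overlap in the run TTTATCT. The Treh window held 2 HNF4-type matches and none of the other kinds. Among 32536 mouse promoter windows of the same length, 51.0% held a caudal-type match, 26.5% a GATA-type match and 12.6% an HNF4-type match. At least 4 caudal-type matches were found in 5.29% of windows, at least 2 GATA-type matches in 6.23% and at least 2 HNF4-type matches in 0.962%. The GC content was 31.6% in the Sis window, lower than in all but 2.15% of windows, against 42.4% for Mgam, 42.8% for Lct and 53.2% for Treh. A match describes letters in the window and shows no binding.

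Depth was close in both libraries, at 44977004 expected counts in replicate 1 and 45438504 in replicate 2, with ERCC spike-ins at 1.35% and 1.36% of them. The make-up of the libraries was not close. Marker lists of exocrine pancreas, stomach and Brunner's gland (the mucous gland of the first duodenum) together held 12.9% of the TPM (a level per transcript length, scaled to a fixed total) in replicate 1 and 0.18% in replicate 2. Of the tested markers, 28 of 30 for pancreas, 12 of 15 for stomach and 2 of 2 for Brunner's gland were called higher in replicate 1 under the rule defined below. That rule called 14.5% of all tested genes higher in replicate 1 and 11.4% higher in replicate 2. Called higher in replicate 2 were 2 of the stomach markers and none of the pancreas or Brunner's gland markers. Pdx1, a transcription factor of duodenum and pancreas, stood at 41.54 and 0.39 TPM, so that this marker of the labelled tissue was near 0 in replicate 2. The ileal markers Fabp6 and Fgf15 were at 0 in both libraries, and the kidney list, a tissue that also makes trehalase, summed to 2.37 and 0.07 TPM. The part of these differences in the disaccharidase values was not tested.

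Trehalase and lactase were the most abundant disaccharidase transcripts and Sis the least. Treh was listed at 155.45 TPM in replicate 1 and 403.4 in replicate 2, a mean of 279.4 ± 175.3 (SD, n = 2). Lct was at 90.29 and 392.43 TPM, a mean of 241.4 ± 213.6 (SD, n = 2). Both genes were higher in replicate 2, and the ranges of their 2 libraries overlapped. Treh was above Lct within each library, by little in replicate 2, and 2 libraries give little measure of how steady that order is. Mgam was at 71.69 and 93.8 TPM, a mean of 82.75 ± 15.63 (SD, n = 2). Sis was at 19.55 and 29.79 TPM, a mean of 24.67 ± 7.24 (SD, n = 2). The range of Mgam overlapped that of Lct, whose replicate 1 value lay between both Mgam values, while Sis lay below the other 3 genes in both libraries.

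The deposited interval bounds, which cover the quantifier's uncertainty in splitting reads within a library, were far narrower than the gap between libraries. For Treh they ran from 151.3 to 157 TPM in replicate 1 and from 394.9 to 404.4 in replicate 2. For Lct, around a posterior mean of 89.59 and 388.88 TPM, they ran from 88.37 to 90.8 and from 386.2 to 391.5. For Sis they ran from 18.26 to 20.74 and from 27.51 to 31.67 TPM. Within a library the bounds of the 4 genes did not overlap, and both libraries gave the same order, Treh, Lct, Mgam, Sis. The overlaps of ranges named above are between values of different libraries, and 2 libraries do not settle how steady the order is. Among protein-coding genes ordered by TPM, Treh ranked 741 and 350, Lct 1291 and 362, Mgam 1627 and 1428, and Sis 4275 and 3260.

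**Figure D1:**
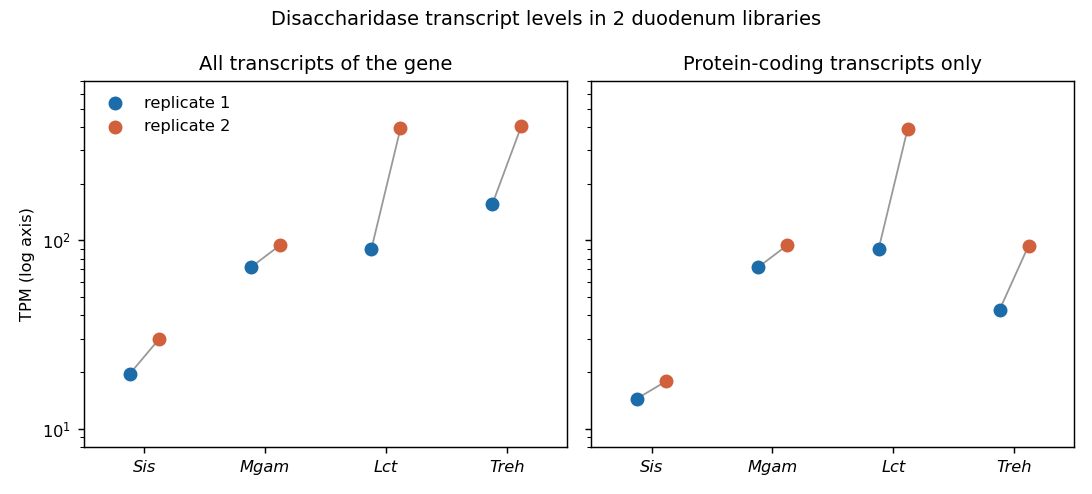
TPM on a log axis for the 4 disaccharidase genes in replicate 1 (blue) and replicate 2 (orange), over all transcripts of the gene (left) and over its protein-coding transcripts only (right); each point is 1 library and the grey lines join the libraries of a gene. Every gene is higher in replicate 2, and Treh drops from the top on the left (155.45 and 403.4 TPM) to the range of Mgam or below on the right (42.67 and 93.57 TPM).

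As a share of the summed TPM of the 4 genes, which was 337 in replicate 1 and 919.4 in replicate 2, Treh took 46.1% and 43.9%. Lct took 26.8% of the sum in replicate 1 and 42.7% in replicate 2. Mgam went from 21.3% to 10.2% and Sis from 5.802% to 3.24%. Lct thus stood at 0.581 times the TPM of Treh in replicate 1 and 0.973 times in replicate 2, and at 4.62 and 13.2 times that of Sis. The ratio of the related starch enzymes, Mgam to Sis, was steadier, at 3.67 and 3.15.

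The levels also ran with base composition. Exonic GC content was 40.5% for Sis, 46.9% for Mgam, 53.0% for Lct and 53.7% for Treh, which is the order of the mean TPM. Across 12076 protein-coding genes with a TPM of at least 1, Spearman's rho between GC content and TPM was 0.306 in replicate 1 and 0.324 in replicate 2. This is across genes, which are not independent replicates, and the part of GC content in the order of the 4 levels was not tested.

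The protein-coding genes nearest to each disaccharidase in level, by distance in log2 TPM over the 2 libraries, were Mrpl57, Gfra4 and Plk3 for Sis and Rbm42, Tepsin and Dhcr7 for Mgam. For Treh they were Hnrnpab, Tmem86b and Mpnd. For Lct they were Ndfip1, Slc25a22 and Krt20, the last a keratin of the villus tip at 86.69 and 344.28 TPM. With 2 libraries, likeness of this kind means only that both levels were close.

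The splitting of reads into transcripts decided how much of each gene was counted as coding. Lct was almost wholly Lct-201, the full protein-coding transcript of 6174 bases, at 99.88% and 99.71% of the gene's TPM by the deposited isoform percent. Mgam had 1 transcript in the tables, Mgam-201, of 6488 bases. Sis was divided among protein-coding Sis-202, at 47.2% and 59.89%, the second coding transcript Sis-201, at 26.67% in replicate 1 and 0 in replicate 2, and Sis-203, at 24.83% and 39.29%. Sis-203 is a fragment of 772 bases at the 5′ end of the gene that keeps an intron. By counts it held only 3.30% and 5.99% of the gene's fragments, because TPM divides by length and the fragment is short.

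The short fragment moved the gene level of Sis. The deposited effective length of the gene fell from 4398.02 bases in replicate 1 to 3664.74 in replicate 2, and the TPM ratio of replicate 2 to replicate 1, 1.52, was accordingly larger than the ratio of its counts per library total, 1.22. Over its 2 protein-coding transcripts Sis stood at 14.44 and 17.84 TPM, a ratio of 1.24.

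For Treh the tables assigned most of the gene to Treh-203, a transcript annotated as a target of nonsense-mediated decay, the pathway that degrades messages with an early stop. Treh-203 was at 111.97 and 306.88 TPM, or 72.03% and 76.07% of the gene, while the protein-coding Treh-201 was at 42.31 and 91.06 TPM, or 27.22% and 22.57%. Beyond 2 bases at its 5′ end and 1 at its 3′ end, Treh-203 differs from Treh-201 only by the absence of exon 5, at chr9:44682632-44682732 on the plus strand (mm10). That exon has 101 bases, which is not a multiple of 3, and without it the annotated coding sequence is 450 bases in place of 1728. Counting coding transcripts only, Treh stood at 42.67 and 93.57 TPM, and the order of mean levels became Lct, Mgam, Treh, Sis. That order takes the deposited split of Treh as given, and the junction reads described next differ from this split.

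Reads across splice junctions, deposited as 1 list with both libraries summed, measure the same exon directly. The exon and the 3 junction sequences are shown because a read that crosses one of these joins, or lies within exon 5, can tell Treh-201 from Treh-203. The junction list counts only reads that cross a join. They are from the GENCODE transcripts, 5′ to 3′, with exon 5 in capitals.
Treh exon 5: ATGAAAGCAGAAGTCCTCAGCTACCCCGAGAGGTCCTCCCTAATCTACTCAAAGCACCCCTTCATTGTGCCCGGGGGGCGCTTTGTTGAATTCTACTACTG
exon 4 to exon 5: aagctgggaaagaagATGAAAGCAGAAGTC
exon 5 to exon 6: TGAATTCTACTACTGggactcgtactgggt
exon 4 to exon 6: aagctgggaaagaagggactcgtactgggt

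The join of exon 4 to exon 5 had 97 reads, the join of exon 5 to exon 6 had 371, and the join that skips the exon had 2. Skipping was therefore 2.02% of the reads leaving exon 4 (exact 95% binomial interval 0.246 to 7.11%) and 0.536% of those entering exon 6 (0.065 to 1.92%). Both intervals lie far below the 72.03% and 76.07% that the isoform percent gave to Treh-203, so the 2 deposited measures of this exon differed. The junction list names mm9, the tables name mm10, and the 97 reads were the lowest count of the 14 introns of Treh-201. No molecular identifiers were used, so the intervals hold counting error and nothing else.

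Along each gene the junction reads were far from even. Junctions were tied to introns by their lengths and mutual distances, which needs no conversion between builds, and 46 of 47 annotated introns of Sis, 63 of 68 of Mgam, 16 of 16 of Lct and 16 of 17 of Treh were matched. An unmatched intron was counted at 0 reads, which may be a missed match and not an absence of reads. The 16 introns of Lct-201 had from 143 to 17011 reads with a median of 761, and the highest was the last intron. The 14 introns of Treh-201 had from 97 to 12966 reads with a median of 833.5, and the highest was the second intron. In Sis-202 the 47 introns ran from 0, at the unmatched intron, to 821 reads with a median of 57. The highest were the first pair, at 775 and 821. Of that pair, the first is an intron of 2 annotated transcripts and the second of 3. The third intron of Sis-202 had 61 reads.

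The highest junction of each gene exceeded the median by 14.4-fold in Sis, 15.6-fold in Treh, 20.8-fold in Mgam and 22.4-fold in Lct. At least 3 reads were found on 45 of 47 introns of Sis-202, 46 of 47 of Mgam-201 and all those of Lct-201 and Treh-201, and at least 10 reads on 38 and 41 introns of the first pair. Few reads crossed junctions outside the annotation in Sis (0.33%), Lct (0.994%) or Treh (1.36%).

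**Figure D2:**
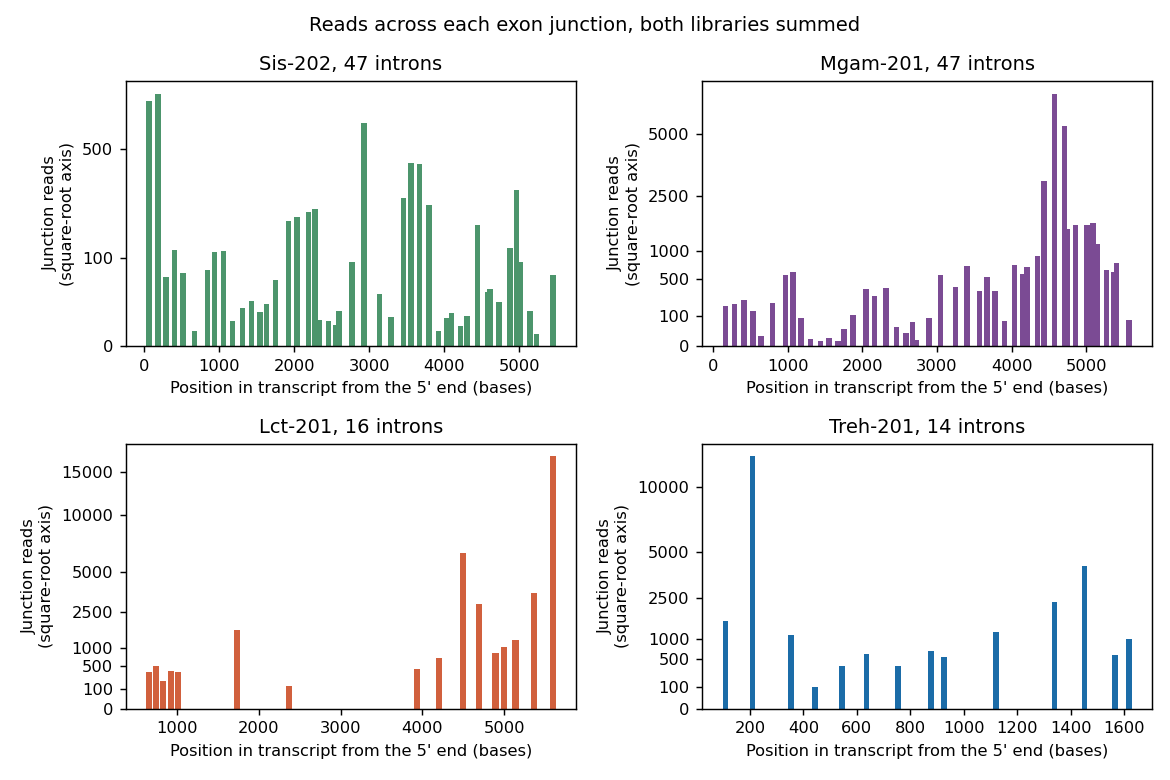
Junction reads summed over both libraries (square-root axis) against the position of each exon junction in the transcript, counted in bases from the 5′ end, for Sis-202, Mgam-201, Lct-201 and Treh-201; each bar is 1 intron. Lct-201 peaks at its last intron with 17011 reads, Treh-201 at its second with 12966, and Mgam-201 toward its 3′ end with 7062.

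Mgam stood apart in that 42.6% of the junction reads within its span, 39658 reads over 198 junctions, were not in the annotation, and 73 of these junctions had at least 10 reads. Of the 198, 10 junctions with 5767 reads had the length of an annotated intron and 9 joined annotated exon ends. Matching rested on lengths and distances across builds and left 5 annotated introns of Mgam unmatched, and how much of this share comes from missed matches was not tested. The later annotation holds a second coding transcript, Mgam-206, which is not a row of the deposited tables. The 32 introns found in Mgam-201 and not in Mgam-206 had a median of 158.5 reads (0 to 730), where 0 stands for an unmatched intron. The 15 introns common to both had a median of 1146 (77 to 7062), and the 16 introns found in Mgam-206 and not in Mgam-201 had a median of 773 (26 to 3851). The deposited level of Mgam rests on Mgam-201 alone and is uncertain to that extent. Mgam is also known to have a pseudogene copy beside it, and whether reads from like exons were split between them was not tested.

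Junctions in GC-rich surroundings had more reads in 3 of the 4 genes. Between the GC content of the 75 transcript bases on each side and the reads, Spearman's rho was 0.611 over the 47 introns of Sis-202, 0.625 over the 47 of Mgam-201, 0.672 over the 16 of Lct-201 and 0.273 over the 14 of Treh-201. Position from the 5′ end gave a rho of -0.197 in Sis, 0.630 in Mgam, 0.756 in Lct and 0.020 in Treh. GC content and position themselves ran together in Mgam (0.291) and Lct (0.369). Introns of a gene share libraries and overlapping flanks, so these are descriptions without a test.

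**Figure D3:**
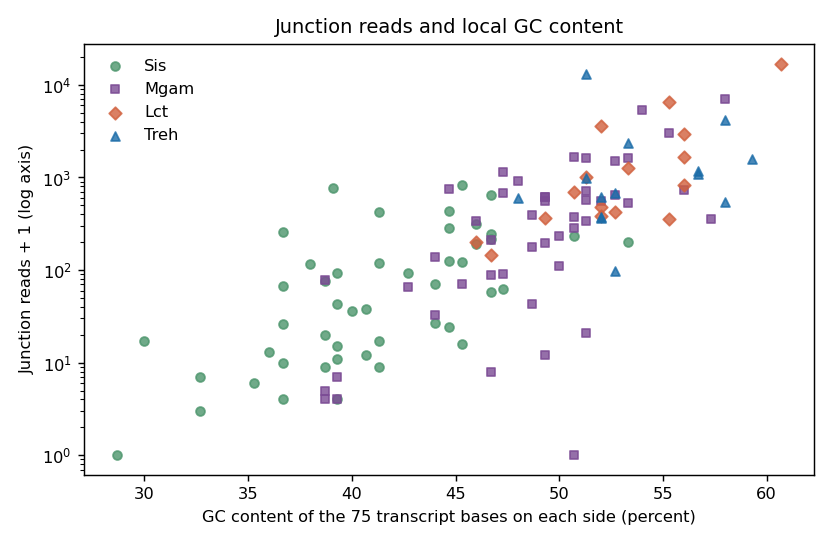
Junction reads plus 1 (log axis), both libraries summed, against the GC content of the 75 transcript bases on each side, for every intron of Sis-202 (circles), Mgam-201 (squares), Lct-201 (diamonds) and Treh-201 (triangles). Sis junctions lie at the low-GC, low-read side (median 57 reads) and Lct and Treh junctions at the high-GC side (medians 761 and 833.5).

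All 4 disaccharidases were higher in replicate 2, and Lct and Treh passed the call while Mgam and Sis did not. The test for each gene was a two-sided exact binomial test of its counts against the TMM-scaled library sizes, with Benjamini-Hochberg adjustment over the 15921 genes whose mean count reached 10. A gene was called where the adjusted p was under 0.05 and the ratio at least 2-fold. The call applied to 2 of 4 members beside 11.4% of all tested genes called higher in replicate 2, 14.5% called higher in replicate 1 and 26.0% in either direction. The test compares 2 libraries beyond counting error. The common biological coefficient of variation between them, over all genes, was 0.529.

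For Lct the count was 22086 in replicate 1 and 92459 in replicate 2, a scaled ratio of 4.88 (exact 95% interval 4.81 to 4.96). Treh had 11306 and 27905 counts, a ratio of 2.88 (2.82 to 2.94). For both, and for Mgam, the adjusted p of the binomial test was below the smallest number the software holds. Mgam had 18478 and 23328 counts, a ratio of 1.47 (1.445 to 1.502), and Sis had 3518 and 4327, a ratio of 1.44 (1.372 to 1.501) with an adjusted p of 1.67e-56 in the exact binomial test. For these enzymes of starch and sucrose the gap exceeded counting error and stayed under 2-fold. On the log2 scale, Lct at 2.29 lay above 99.0% of tested protein-coding genes and Treh at 1.52 above 96.5%, against 79.6% for Mgam and 77.9% for Sis.

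The members are long or well counted, so like genes were set beside them. Among 1358 tested genes with an effective length of at least 5000 bases, as Mgam and Lct have, the median log2 ratio was -0.32 and 4.64% were called higher in replicate 2. Among the 2692 genes whose mean count reached 3000, as it did for all 4 members, the median was 0.38 and 18.3% were called higher in replicate 2. In these tissue samples, more enterocytes and more RNA per enterocyte cannot be told apart.

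The size of the gaps depended on what the libraries were scaled to. Library totals in place of TMM moved the median log2 ratio of all tested genes from -0.04 to -0.24 and turned the split of calls from 1820 higher in replicate 2 and 2313 higher in replicate 1 to 1263 (7.93% of tested genes) and 3169 (19.9%). Lct and Treh then had ratios of 4.15 and 2.44. Scaling to 10 general epithelial genes, whose summed TPM was 4630 and 8114, moved that median to -0.80, and 3.36% of all tested genes were then called higher in replicate 2 and 46.2% lower. Lct kept a ratio of 2.64, Treh dropped under 2-fold at 1.56, and Mgam and Sis turned to lower in replicate 2, at 0.797 and 0.777. An edgeR exact test that allows a coefficient of variation of 0.4 gave Lct an adjusted p of 0.165 and Treh one of 0.608, and the common value given above is larger than that setting.

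**Figure D4:**
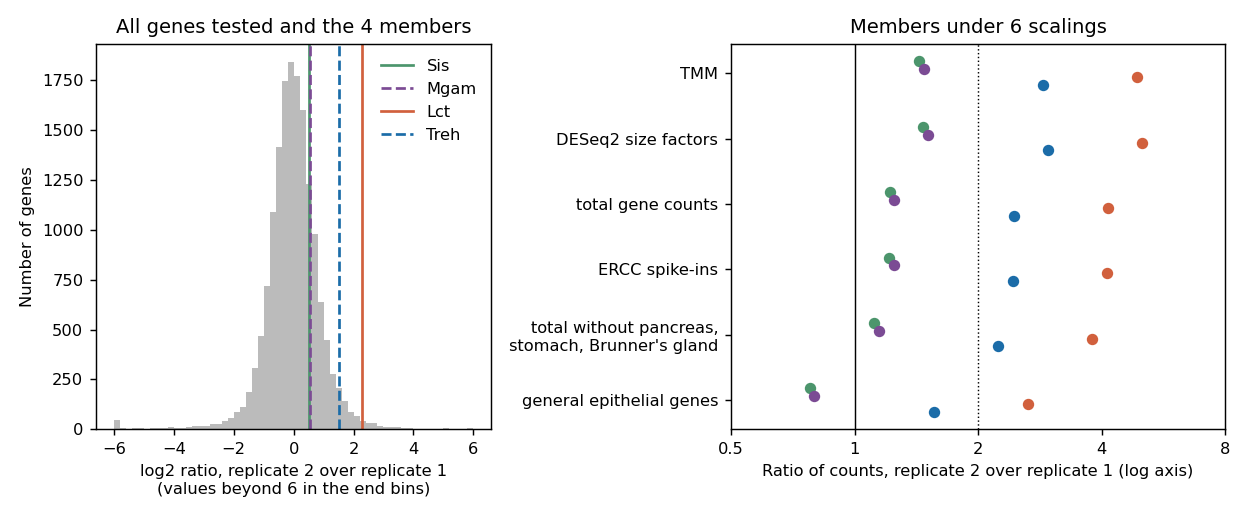
Left, the number of genes by log2 ratio of replicate 2 over replicate 1 for all 15921 tested genes (grey bars, values beyond 6 in the end bins) with a line for each member; right, the ratio of each member (log axis) under 6 scalings, where the solid line marks equal levels and the dotted line the 2-fold limit. Lct stays between 2.64 and 5.01 across the scalings shown, Treh crosses the 2-fold limit and Mgam and Sis cross equality when scaled to general epithelial genes.

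Against villin (Vil1), the actin bundler of the microvillus, the order of change differed between members. Vil1 itself was at 130.84 and 393.69 TPM. Lct stood at 0.690 times Vil1 in replicate 1 and 0.997 in replicate 2, and Treh at 1.19 and 1.03. Mgam went from 0.548 to 0.238 and Sis from 0.149 to 0.0757. Per unit of Vil1, Lct alone of the 4 was higher in replicate 2. The choice of reference mattered for Treh. As a percentage of the summed TPM of the general epithelial genes, Lct went from 1.95% to 4.84% and Treh from 3.36% to 4.97%. On that measure Mgam went from 1.55% to 1.16% and Sis from 0.422% to 0.367%.

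Markers of enterocyte state moved in the same direction as Lct and Treh. Of the villus tip list 7 of 10 genes were called higher in replicate 2 and none lower. Over all tested genes these shares were 11.4% and 14.5%. The median log2 ratio of the list was 1.40, beside -0.04 over all tested genes. The summed level of that list was 2873 and 9150 TPM, mostly Apoa4, an apolipoprotein of fat absorption, at 2380.2 and 7925.84. Krt20 had a ratio of 4.42, Ada one of 2.91 and Cdkn1a one of 2.41. Under the epithelial scaling 4 of the 10 were called higher in replicate 2 and 1 lower, beside 3.36% and 46.2% of all tested genes. Of 8 crypt and stem cell markers none was called higher in replicate 2 and 2 were called lower, with sums of 298.8 and 205.1 TPM. Among markers of other cells of the wall, 5 of 8 goblet, 7 of 8 Paneth and 4 of 8 immune markers were called higher in replicate 2, beside 11.4% of all tested genes. For enteroendocrine cells the count was 1 of 8, near that background. Called lower in replicate 2 were 2 goblet and 2 of 6 smooth muscle markers, beside 14.5% of all tested genes. The part of all these markers in the member ratios was not tested.

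The genes that hand on the sugars made by the disaccharidases were higher in replicate 2 for 6 of 11 hexose transporters, none of the list was called lower, and the median log2 ratio was 1.23. Of all tested genes 11.4% were called higher in replicate 2 and 14.5% lower. Slc5a1, the sodium-driven carrier of glucose and galactose, was at 255.17 and 576.79 TPM, a ratio of 2.54. Slc5a11, a carrier of myo-inositol and glucose, had a ratio of 4.51, Slc2a7 one of 3.27 and Slc5a4a one of 9.83. Slc2a5, the fructose carrier, at 158.49 and 253.72 TPM, was not called at a ratio of 1.67. Slc2a8 was not called either, at 1.11. Slc2a1, the basal glucose carrier of many tissues, lay the other way at 30.21 and 13.57 TPM. Its ratio of 0.510 just missed the call, and it was called lower in replicate 2 with library totals (0.432), ERCC totals (0.431) and totals without the genes of other organs (0.396). Scaled to general epithelial genes, 3 of the 11 were called higher in replicate 2 and 1 lower. At that scaling the shares of all tested genes were 3.36% and 46.2%.

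Of the enzymes of fructose and galactose use, 2 of 12 were called higher in replicate 2, near the background of 11.4%, and none lower, with a median log2 ratio of 0.30. The difference from the transporter list was not tested. Khk, which phosphorylates fructose, was at 368.7 and 891.11 TPM with a ratio of 2.72, and Glyctk, which phosphorylates glycerate, had a ratio of 2.40. Tkfc, at 230.31 and 233.01 TPM, was not called. Of the 7 genes of the carbohydrate response list only Fasn, fatty acid synthase, was called, at a ratio of 2.11, and the list's median was 0.20. That call was lost with library totals (1.79), ERCC totals (1.78), and totals without the pancreas, stomach and Brunner's gland genes (1.64). Under the epithelial scaling the medians of these lists turned negative, at -0.58 and -0.69, with 2 of 12 and 1 of 7 genes called lower in replicate 2, both shares under the 46.2% of all tested genes.

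The lists of other glycosidases are set beside 11.4% of all tested genes called higher in replicate 2 and 14.5% called higher in replicate 1. In lists this small, none called higher in replicate 2 is close to the first share. The pancreatic-type amylases, which make the substrates of Mgam and Sis in the lumen, were all called higher in replicate 1, 5 of 5 tested, and summed to 620.3 TPM there and 1.07 in replicate 2. Amy2a2 was at 191.41 and 0.21 TPM, and Amy2a3, Amy2a4 and Amy2a5 are near-identical copies among which reads may be split. The alpha-glucosidases inside the cell, relatives of Mgam and Sis in activity, had none of 4 called. Of these Gaa, the lysosomal acid maltase, was at 86.29 and 39.8 TPM, and Mogs, which trims glycans in the endoplasmic reticulum, at 60.14 and 46.65. In the family of lactase none of 5 was called higher in replicate 2 and 2 were called lower, both under 1 TPM. Of 9 lysosomal glycosidases 1 was called higher in replicate 2 and 1 lower, near the shares of all tested genes.

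Brush border peptidases, which share the apical membrane with the disaccharidases, were called higher in replicate 2 for 10 of 12 genes and lower for 1, with a median log2 ratio of 1.99. Over all tested genes the called shares were 11.4% higher in replicate 2 and 14.5% lower. Anpep, aminopeptidase N, was at 545.26 and 2877.98 TPM, a ratio of 5.90. Ace, the dipeptidase that also processes angiotensin, had a ratio of 6.47, Ggt1 one of 2.07 and Naaladl1 one of 24.1. Mme, neprilysin, was not called at 1.57. Compared with these, the ratios of Sis and Mgam were lower than those of all 11 peptidases that were higher in replicate 2, and the difference between the lists was not tested.

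The list of other hydrolases split in both directions, 4 called higher in replicate 2 and 3 higher in replicate 1, and 1 of these 3, Cel, is secreted by the pancreas and is also on the pancreas list. The list had 7 tested genes. Of all tested genes 11.4% were called higher in replicate 2 and 14.5% higher in replicate 1. Alpi, intestinal alkaline phosphatase, was at 7153.05 and 1567.65 TPM, and its relative Akp3 at 5208.52 and 12.33, a 380-fold gap. Cel, a lipase, was at 771.47 and 0.94 TPM. Enpp7, which splits sphingomyelin in the lumen, was at 2.53 and 746.21 TPM, the opposite direction.

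Genes of the microvillus core were called higher in replicate 2 for 6 of 12 members and lower for none, among them Cdhr5, an adhesion protein of microvillus tips, at a ratio of 2.83, Espn at 2.53, Myo1a at 2.45 and Vil1 at 3.35. Cdhr2 and Ezr were not called, at 1.79 and 1.76. Over all tested genes 11.4% were called higher in replicate 2 and 14.5% lower. None of the 12 passed under the epithelial scaling, where 3.36% of all tested genes were called higher in replicate 2 and 46.2% lower. Of the list of proteins that sort glycoproteins to the apical side 4 of 9 were called higher in replicate 2, the galectin Lgals3 at a ratio of 2.49, Anxa2 at 2.22, Stx3 at 2.48 and Rab11a at 2.07, while Lgals4, at 2129.8 and 2795.25 TPM, was not called, with a ratio of 1.52. The 4 of 9 stand beside the same 11.4% of all tested genes. Scaled to general epithelial genes, none of the 9 was called.

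**Figure D5:**
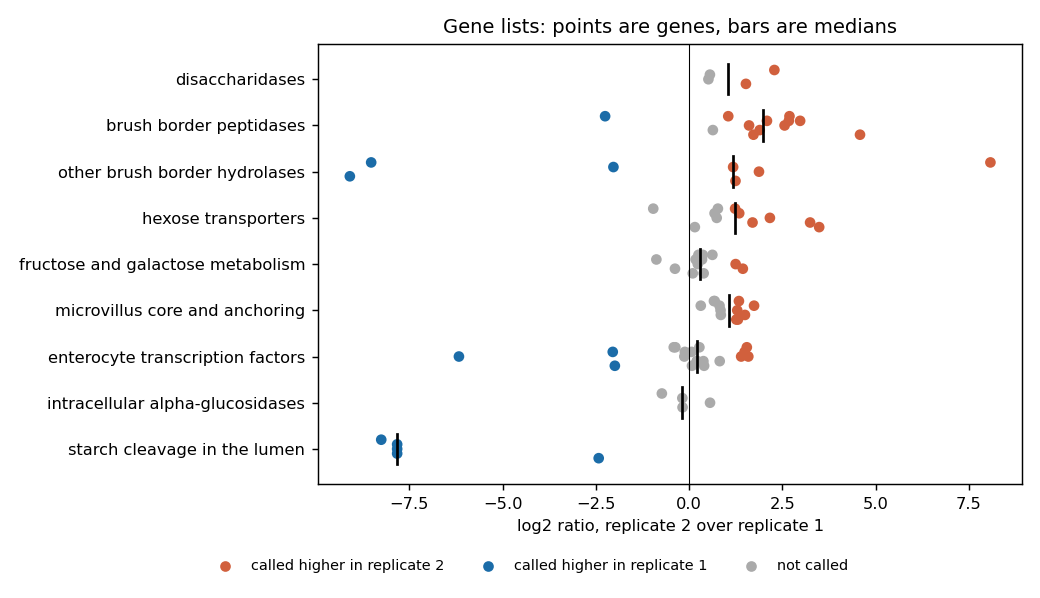
Log2 ratio of replicate 2 over replicate 1 for the tested genes of 9 lists; each point is a gene, orange where called higher in replicate 2, blue where called higher in replicate 1 and grey where not called, and black bars are list medians. The disaccharidases (median 1.04) lie with the hexose transporters (1.23) and microvillus genes (1.06), under the peptidases (1.99) and far from the amylases (-7.83).

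Among the factors whose motif types were counted above, Cdx2 and Cdx1, the caudal-type factors, were both called higher in replicate 2, at ratios of 3.01 and 2.81. Maf, a factor known to act late in enterocyte maturation, was called higher too, at 2.94. Gata5 was called higher, at 2.64, and Gata4 was not called, at 0.923. Hnf4a, at 261.23 and 184.25 TPM, was not called, with a ratio of 1.047. Klf5, at 289.36 and 343.93 TPM, was not called. Over the whole list of 19 factors 4 were called higher in replicate 2 and 3 lower, Pdx1, Foxa1 and Onecut2. Of all tested genes 11.4% were called higher and 14.5% lower, and the count of factors called lower was near that share. The median log2 ratio of the list was 0.21. Scaled to general epithelial genes, no factor was called higher in replicate 2 and 7 of 19 were called lower, a share under the 46.2% of all tested genes at that scaling.

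Lct is highest in the suckling gut, so other genes of that stage were counted. Without Lct itself, 3 of the 8 tested genes of the suckling-type list were called higher in replicate 2 and 1 lower. Over all tested genes these shares were 11.4% and 14.5%, and the median log2 ratio of the 8 was 0.53. The gene called lower was Dab2, at 5.41 and 1.61 TPM, a ratio of 0.322. Amn, a part of the receptor for cobalamin and protein uptake, was at 82.41 and 1000.26 TPM, and its partner Cubn at 0.28 and 9.83. Lamp1, a lysosomal membrane protein, had a ratio of 2.15. Fcgrt, the receptor that takes up milk antibodies, was not called, with 75.99 and 122.7 TPM and a ratio of 1.80. Fbp1, at 116.5 and 48.69 TPM, was not called and lay the other way. Scaled to general epithelial genes, 3 of the 9, Lct included, were called higher in replicate 2 and 3 lower, beside 3.36% and 46.2% of all tested genes.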

How the data were processed

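The members and gene lists were chosen with earlier results of these data known. The authors' expected counts estimate the fragments of each gene and transcript, shared reads being split by their quantifier, against mm10 and GENCODE M4 per the text beside the tables. Aligner and quantifier were both not given in the sources used here. Deposited TPM was scaled by the authors to length and to 1 total over all rows, spike-ins included, and the deposited FPKM to length and fragments, as the file headers name it. Isoform percent as deposited is a transcript's share of its gene's TPM, per the file headers. The deposited count of reads per splice junction (mm9) is the sum over both libraries. Which of its columns is which replicate is not given, so it was not split.

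Names and positions came from GENCODE M21 for 42462 of 43346 gene rows, and the rows without a symbol held 0.0939% and 0.0810% of counts. ERCC and 26248 numbered rows were left out of tests. After rounding, TMM scaling was done with edgeR 4.0.16 under R 4.3.3. Ratios used the exact binomial test with Clopper-Pearson 95% intervals in scipy 1.17.1, and log2 ratios used CPM plus 0.5, which understates ratios of low genes. The test was checked on simulated data. DESeq2 1.42.0 gave alternative size factors.

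Named genes were the 4 members, per list up to 4 called genes of highest mean TPM (at least 1) and up to 2 not called, 3 genes nearest in level, and transcripts of at least 5% of a gene. Pdx1, Foxa1, Onecut2, Gata4, Slc2a1, Dab2 and the ileal markers fall outside that rule and were chosen after their values were seen. List counts under other scalings or without a member, and levels over coding transcripts alone were added after seeing the data. Promoters came from RefSeq, where all 4 members matched. Protein sequences were not analysed here, and some genes that the rule would name are not reported here.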

Additional observations from a re-analysis of the deposited data

How the results depend on the processing

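Across 8 alternative scalings, count measures and tests, the ratio of replicate 2 to replicate 1 ran from 2.64 to 5.01 for Lct, 1.56 to 2.95 for Treh, 0.797 to 1.51 for Mgam and 0.777 to 1.47 for Sis. Treh lost its call at 1.559 when scaled to general epithelial genes. Under the edgeR exact test with a coefficient of variation of 0.4, Lct (4.884, adjusted p = 0.165) and Treh (2.88, adjusted p = 0.608) lost theirs, and with 0.2 both kept it (adjusted p of 2.96e-06 and 0.00288). Genes called higher in replicate 2 and replicate 1 numbered 3355 and 3816 at 1.5-fold and 500 and 840 at 4-fold. As a share of expected counts in place of isoform percent, Lct-201 was at 99.99%, Sis-202 at 77.83% and Sis-203 at 4.643%, the last because the transcript is short. Counting protein-coding transcripts only, a choice made after seeing the data, lowered the mean level of Treh to 68.12 TPM and of Sis to 16.14 TPM. The Treh value rests on the isoform percent, from which the junction reads of exon 5 differed. With 1 library in place of the mean of 2, Lct stood at 90.29 or 392.4 TPM, Treh at 155.4 or 403.4, Mgam at 71.69 or 93.8 and Sis at 19.55 or 29.79. TPM without pancreas, stomach and Brunner's gland genes gave ratios of 1.33 for Sis, 1.14 for Mgam, 3.79 for Lct and 2.26 for Treh. No paired analysis was possible because the design has 1 group. Depth did not limit the 4 genes, each with over 3000 counts per library, while 2 libraries limit every statement on spread.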
